A study of Rattus norvegicus with 23 samples.

Results

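The genes described here encode the nuclear-encoded subunits of the oxidative phosphorylation complexes in the rat heart. They were all genes with a symbol that begins with Ndufa, Ndufb, Ndufc, Ndufs or Ndufv and a number, Sdha to Sdhd, Uqcr, Cox4 to Cox8, or Atp5, as named through the accession of their probe. The rule used no expression value and found 79 of the 16544 genes named on the array, covered by 105 probes, with more than 1 probe for 21 genes. By complex there were 32 genes of complex I, 4 of complex II, 8 of complex III, 18 of complex IV and 16 of complex V, and 1 pseudogene, Cox6c-ps1. The RNA came from untreated male Wistar rats aged 8 to 11 weeks, 12 rats in all. The 23 single-color arrays held 4 samples of left atrium (LA, the tissue next to the pulmonary vein), 4 of left ventricle (LV), 3 of right ventricle (RV, its free wall), 4 of the sinoatrial node region (SA), 4 of pulmonary vein (PV) and 4 of pulmonary artery (PA). Tissue of 2 rats was pooled for each SA sample. V denotes both ventricles and is the mean of the LV and RV means, except in the tests of isoform balance and the F-test, where the ventricular arrays were pooled. All values are log2(normalized signal + 1), taken from the highest probe of a gene on each array.

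In oxidative phosphorylation, complex I takes electrons from NADH and complex II takes them from succinate, both pass them to ubiquinone, and complexes III and IV carry them on through cytochrome c to oxygen. Complexes I, III and IV pump protons across the inner mitochondrial membrane, and complex V, the ATP synthase, uses their return flow to make ATP. Cardiac myocytes are packed with mitochondria and rely on this pathway for contraction, and several subunits of complex IV exist as a form typical of heart and skeletal muscle and a form found in other tissues.

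Promoter sequences were taken from RefSeq (build GRCr8) for 69 of the 79 genes, each a window from 250 bases before to 50 bases after the gene start. The 250 bases upstream of the start are shown for 5 genes on which the results below turn, the muscle isoforms Cox6a2 and Cox8b, the partner isoform Cox8a, and the genes with the largest difference between V and LA in complexes II and III, Sdhb and Uqcrc1. Capitals mark letters that match 1 of 4 motifs searched on both strands, CCGGAAG for the ETS family (to which the mitochondrial regulator GABP belongs), GCGCA and GCGC with any 1 base between them for NRF1, TNAAGGTCA for the estrogen-related receptors, and the MEF2 element of muscle genes. The windows lie at chr1:192219717-192219966 (minus strand) for Cox6a2, chr1:205408274-205408523 (minus strand) for Cox8b, chr1:213833624-213833873 (minus strand) for Cox8a, chr5:158547684-158547933 (plus strand) for Sdhb and chr8:118467973-118468222 (plus strand) for Uqcrc1.
Cox6a2: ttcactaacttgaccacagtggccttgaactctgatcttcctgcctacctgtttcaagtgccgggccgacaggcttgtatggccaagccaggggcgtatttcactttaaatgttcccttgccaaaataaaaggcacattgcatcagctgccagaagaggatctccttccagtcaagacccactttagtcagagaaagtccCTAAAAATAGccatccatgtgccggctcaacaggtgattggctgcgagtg
Cox8b: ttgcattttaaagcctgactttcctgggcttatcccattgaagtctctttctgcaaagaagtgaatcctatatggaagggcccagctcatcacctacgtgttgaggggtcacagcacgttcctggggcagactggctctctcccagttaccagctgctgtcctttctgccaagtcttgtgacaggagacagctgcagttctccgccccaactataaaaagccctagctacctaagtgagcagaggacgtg
Cox8a: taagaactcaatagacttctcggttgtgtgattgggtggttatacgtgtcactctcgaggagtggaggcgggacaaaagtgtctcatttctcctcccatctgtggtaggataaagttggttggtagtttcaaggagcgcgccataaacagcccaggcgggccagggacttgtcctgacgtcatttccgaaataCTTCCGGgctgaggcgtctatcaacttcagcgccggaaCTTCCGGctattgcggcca
Sdhb: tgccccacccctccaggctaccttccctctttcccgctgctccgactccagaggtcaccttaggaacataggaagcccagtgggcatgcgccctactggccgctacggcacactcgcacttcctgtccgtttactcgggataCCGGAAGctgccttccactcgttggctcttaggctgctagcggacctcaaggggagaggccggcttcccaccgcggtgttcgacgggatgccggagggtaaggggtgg
Uqcrc1: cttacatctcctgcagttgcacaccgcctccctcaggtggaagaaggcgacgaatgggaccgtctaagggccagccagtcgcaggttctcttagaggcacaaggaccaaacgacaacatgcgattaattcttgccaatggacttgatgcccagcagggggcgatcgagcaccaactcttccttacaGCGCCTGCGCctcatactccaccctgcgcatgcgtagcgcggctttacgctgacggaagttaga
The Cox6a2 window holds a MEF2 element that begins 50 bases before the start, the Cox8a window 2 ETS motifs at 57 and 19 bases before it, the Sdhb window an ETS motif at 108 bases before it and the Uqcrc1 window an NRF1 motif at 64 bases before it. In the Cox8b window none of the 4 motifs is found. Over the whole windows, the ETS motif lay in 21 of the 69 subunit promoters (30.4%) against 8.75% of all 33469 promoters of the RefSeq table. The NRF1 motif lay in 12 (17.4% against 4.25%), the estrogen-related receptor motif in 2 (2.90% against 1.2%) and the MEF2 element in 1 (1.45% against 3.29%), which is Cox6a2. No motif was found in 36 of the 69 windows, and the median GC content was 56.3% in the subunit promoters and 51.7% in all promoters. A match is a description of letters, not evidence of binding.

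On the arrays, 58.6% to 79.8% of all probes were well above background, the lowest scaled signal that was so lay between 13.5 and 49.6, and no spot was saturated. Of the 79 subunit genes, 78 were well above background on all 23 arrays, and Cox8c was so on 1 array, so that the low-signal filter removed no member. Each array had been multiplied by 1 factor between 0.881 and 1.52 to equalise the 90th percentile. The factors were 0.881 to 1.08 in LA, 1.07 to 1.35 in PV, 1.32 to 1.46 in SA, 1.06 to 1.23 in RV, 1.21 to 1.39 in LV and 1.06 to 1.52 in PA, and the part of their lower range in LA in the comparisons with LA was not tested beyond the other scalings. The labels were checked against markers. The node gene Shox2 lay at 11.30 to 11.55 on the SA arrays, at 10.91 to 11.16 on the PV arrays and at 7.52 to 8.20 on the LA arrays, and the pacemaker channel gene Hcn4 lay at 10.23 to 10.58 in SA against 6.47 to 10.05 on the other 19 arrays. The labels do not say that samples of a region came from separate rats. By the study's methods each LV mass was cut into 3 pieces that served as samples, and several regions were taken from a heart (SA separately), so that LV samples may share a ventricle and regions may share rats. Which samples do is not given in the sources used here, and p-values measure only the spread between these samples, which may be technical.

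The median over the 79 genes, after each gene was centred on its mean over the 23 arrays, placed the regions in the order PA, LA, PV, SA, RV, LV. It was -1.78 ± 0.05 (SD, n = 4) in PA, 0.02 ± 0.11 (n = 4) in LA, 0.24 ± 0.04 (n = 4) in PV, 0.44 ± 0.04 (n = 4) in SA, 0.56 ± 0.12 (n = 3) in RV and 0.68 ± 0.06 (n = 4) in LV. The arrays of PA, LA, PV and SA occupied separate ranges, -1.83 to -1.72, -0.08 to 0.15, 0.21 to 0.29 and 0.40 to 0.49. The RV arrays, at 0.43 to 0.64, overlapped those of SA and those of LV, which lay at 0.58 to 0.72. Gene by gene, the means ran LA below PV below SA below both ventricles in 56 of the 79 genes, and in 55 of these PA was below LA. LV had the highest mean in 61 genes and PA the lowest in 73.

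**Figure D1:**
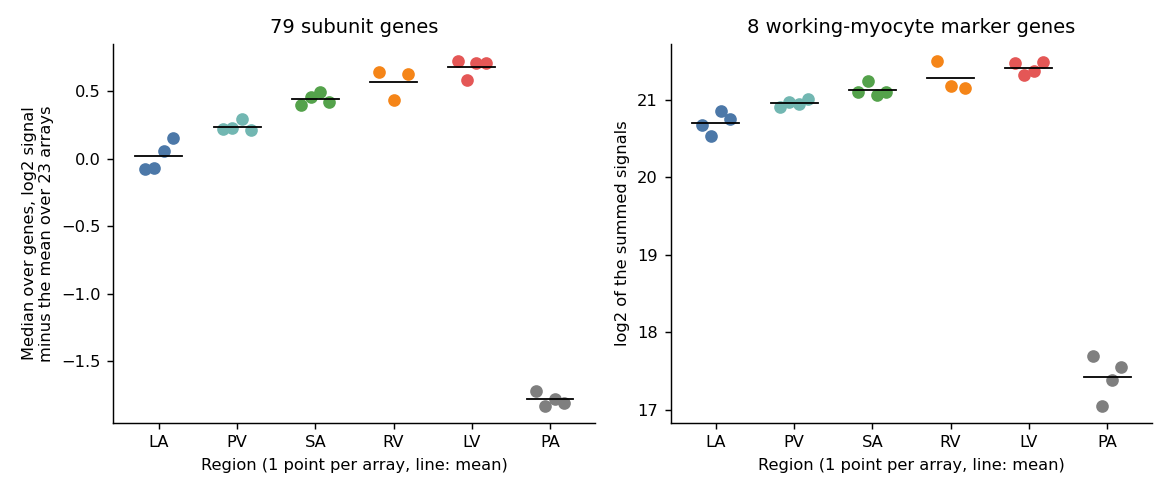
Left, median over the 79 subunit genes of the log2 signal centred on each gene's mean over the 23 arrays. Right, log2 of the summed signal of 8 working-myocyte marker genes, with the ventricular marker Myl3 among them. There is 1 point per array, and lines are region means. On the left PA lies at -1.83 to -1.72 and the other regions from -0.08 (LA) to 0.72 (LV); on the right PA lies at 17.06 to 17.70 and LA at 20.54 to 20.86.

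Contractile genes of working myocytes were also low in PA. The 8 markers measured were Myh6, Tnnt2, Tnni3, Actc1, Ryr2, Myl3, Mybpc3 and Pln. Their summed signal was 20.54 to 20.86 in LA, 20.90 to 21.00 in PV, 21.06 to 21.25 in SA, 21.16 to 21.50 in V and 17.06 to 17.70 in PA on the log2 scale. In 6 of the 8 the region means ran LA below PV below SA, and in none of these 6 were both ventricles above SA. The ventricles were above SA in the remaining markers, Myl3 and Pln. Myl3, which the study calls a known ventricular marker, had means of 13.12 in SA, 18.44 in RV and 18.57 in LV. It therefore adds to the V sum. Of these 8 markers, 3 were higher in V than in LA (median difference 0.38), 1 was higher in SA than in LA (median 0.30), 1 was higher in PV than in LA (median 0.21), and 2 were higher and 1 lower in V than in SA (median -0.06). All 8 were lower in PA than in the mean of the 5 other regions (median difference 4.56). Smooth muscle markers ran from 14.63 to 14.91 in LA and 14.67 to 15 in V to 19.06 to 19.34 in PA, and 6 of 6 were higher in PA. In PA 3 of 5 fibroblast and 3 of 5 adipocyte markers were also higher, 1 of each list was lower, and 4 of 5 endothelial markers were lower. Of 6 brown adipocyte markers 3 were higher and 2 lower in PA. Endothelial markers were at 15.01 to 15.31 in LA and 15.88 to 16.16 in V, and 4 of 5 were higher in V than in LA, as were 3 of 4 macrophage (median difference 0.62) and 3 of 6 smooth muscle markers (0.45). The part of these cell types in the differences below was not tested, and in tissue RNA fewer cells of a type and less RNA per cell cannot be told apart.

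Subunits of all 5 complexes were higher in the ventricles than in LA, by 1.52-fold at the median. With limma across all genes and Benjamini-Hochberg adjustment (adjusted p below 0.05, as in every comparison below), 71 of 79 genes were higher in V and 0 were lower. Of all 16089 genes tested, 18.4% were higher and 16.9% lower. The median fitted difference (V minus LA) was 0.60 for the subunits and 0.09 for all genes. In 67 of the 79 genes each ventricular array lay above all 4 LA arrays, as it did in 12.5% of all genes. The genes that passed were 31 of 32 in complex I (median difference 0.64), 4 of 4 in complex II (0.56), 8 of 8 in complex III (0.63), 13 of 18 in complex IV (0.56) and 14 of 16 in complex V (0.51). The 8 that did not pass were Ndufa10, Cox6a2, Cox6b2, Cox7a2l, Cox8a, Cox8c, Atp5f1b and Atp5if1. Within array rows the median difference was 0.61 to 0.62, and within slides 0.49 to 0.65. Under quantile normalization 53 genes were higher and 2 lower, with a median difference of 0.37. Without LA replicate 1, and again without LA replicate 3, 70 genes were higher and 1 was lower.

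**Figure D2:**
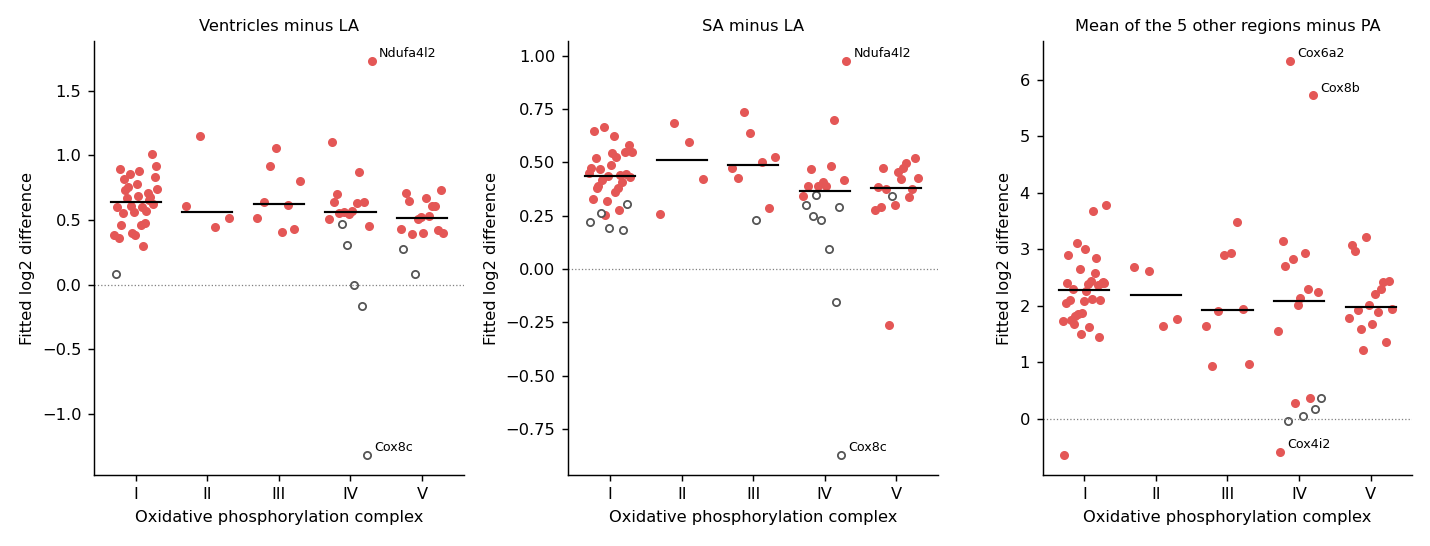
Fitted log2 difference of each subunit gene by complex for V minus LA, SA minus LA, and the mean of the 5 other regions minus PA; filled points passed the limma test, open points did not, lines are medians, and the pseudogene is not drawn. Nearly all points lie above 0, with medians of 0.51 to 0.64 in the left panel; the points furthest from the rest are isoforms of complex IV.

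In complex I, all 7 core subunits, which bind the flavin and the iron-sulfur clusters and carry the electrons, were higher in V than in LA (median difference 0.71), as were 24 of 25 accessory subunits (0.61). Ndufs7, a core subunit that holds an iron-sulfur cluster near the quinone site, showed the largest difference of this complex. Its values were 15.12, 15.17, 15.40 and 15.57 on the LA arrays and 16.24, 16.34 and 16.40 as the lowest, the median and the highest of the 7 V arrays. It was at 15.69, 15.81, 15.82 and 15.72 in SA and 15.60, 15.51, 15.55 and 15.38 in PV. Every V array was above the arrays of LA, SA and PV, while PV overlapped LA. Ndufs7 was higher in V than in LA by 1.01 ± 0.08 (SE, 2.02-fold, limma adjusted p = 7.96e-09), and higher than in PV by 0.82 ± 0.08 (limma adjusted p = 1.53e-07). Ndufa10, an accessory subunit, was well above background on all 23 arrays, at 7.32 to 8.98, and did not pass (0.08 ± 0.16, limma adjusted p = 0.729).

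In complex II, which is also the succinate dehydrogenase of the citric acid cycle, Sdhb differed most. Sdhb encodes the iron-sulfur subunit. Its LA values were 14.92, 15.06, 15.25 and 15.21, its SA values 15.76, 15.78, 15.87 and 15.78, and its PV values 15.72, 15.59, 15.64 and 15.92. The V arrays ran from 16.05 through a median of 16.29 to 16.40. The LA arrays lay below all others of these 4 tissues, SA and PV overlapped, and the V arrays lay above both. Sdhb was 2.21-fold higher in V than in LA (log2 difference 1.15 ± 0.07, limma adjusted p = 5.5e-10). Sdha, the flavoprotein subunit, was higher in V by 0.61 ± 0.07, and Sdhc, a membrane anchor, by 0.45 ± 0.08 (limma adjusted p = 0.000153), the smallest difference of the 4 subunits.

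In complex III the largest difference was that of Uqcrc1, a core protein of the matrix side. It was at 14.78, 14.74, 14.87 and 14.92 in LA, and at 15.72, 15.96 and 16.04 as the lowest, the median and the highest of the V arrays, without overlap. The difference was 1.05 ± 0.08 (limma adjusted p = 2.26e-09). The other core protein, Uqcrc2, showed the smallest difference of the complex, 0.40 ± 0.09 (limma adjusted p = 0.00148).

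In complex V, the rotary ATP synthase, the genes that passed were 4 of 5 of the catalytic F1 part (median difference, V minus LA, 0.43), 4 of 4 of the membrane Fo part (0.57), both genes of the c ring (0.51) and 4 of 4 of the peripheral stalk (0.52). Atp5pf, a peripheral stalk subunit known as coupling factor 6, differed most. It was at 16.16, 15.96, 16.29 and 16.27 in LA and at 16.81, 16.91 and 16.99 as the lowest, the median and the highest in V. The groups did not overlap (0.73 ± 0.07, limma adjusted p = 1.99e-07). Atp5f1b, the catalytic beta subunit, named here after its values were seen because it did not pass, differed by 0.27 ± 0.11 (limma adjusted p = 0.0585). It passed without LV replicate 4, PA replicate 3 or SA replicate 1 (limma adjusted p 0.0347 to 0.0442) and with normexp background correction (0.36, limma adjusted p = 0.0126).

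Atp5if1 departed from the synthase it binds. It encodes the inhibitory factor that blocks ATP hydrolysis when the synthase runs in reverse. It was at 15.30, 15.33, 15.33 and 15.35 in LA and at 15.02, 15.05, 15.09 and 15.10 in SA, so that all SA arrays were below all LA arrays. PV was at 15.10, 15.09, 15.32 and 15.04 and overlapped both, and V ran from 15.29 through 15.47 to 15.57. Atp5if1 was lower in SA than in LA by 0.26 on the log2 scale (-0.26 ± 0.07, limma adjusted p = 0.0205), the only subunit gene that was. The call was lost without SA replicate 1 (-0.25, limma adjusted p = 0.0538), and under quantile normalization Cox8a was lower in SA as well (-0.39, limma adjusted p = 0.00375). V and LA did not differ past the threshold (0.08 ± 0.07, limma adjusted p = 0.391), and V was above SA by 0.34 ± 0.07 (limma adjusted p = 0.000506).

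Subunit signals were also higher in SA than in LA. In SA, 63 of 79 genes were higher than in LA and 1 was lower, against 7.03% higher and 8.26% lower among all genes, and the median difference was 0.42 against 0.01. Without overlap of arrays 66 genes were higher in SA, against 9.62% of all genes. Under quantile normalization 29 genes were higher and 2 lower, with a median difference of 0.21. By complex 27 of 32, 4 of 4, 7 of 8, 10 of 18 and 14 of 16 genes of complexes I to V were higher. The largest differences were those of Ndufa4l2, described with the isoforms, and Uqcrb, a complex III subunit that takes part in ubiquinone binding. Uqcrb was at 15.88, 15.88, 15.91 and 16.02 in LA and 16.49, 16.59, 16.71 and 16.84 in SA, without overlap (0.74 ± 0.07, limma adjusted p = 1.82e-06). A dimmer probe of Uqcrb gave a smaller V minus LA difference, 0.32 against 0.91.

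Ucp1, the uncoupling protein of brown fat, a tissue rich in mitochondria, was high in some samples. It was at 11.49, 13.60, 11.15 and 12.46 in SA, 12.42, 12.32, 8.16 and 8.35 in PV, and 11.14, 12.34, 13.23 and 13.33 in PA, against 3.86, 5.44, 7.35 and 5.10 in LA and 3.38 to 5.04 in V. The SA, PV and PA arrays were all above the LA and V arrays. Of the 6 brown adipocyte markers 1, Ucp1, was higher in SA than in LA. The log2 of their summed signal was 15.81 to 16.41 in LA, 16.43 to 16.63 in SA and 15.99 to 16.20 in PV. It was 16.25 to 16.67 in V and 12.73 to 14.06 in PA, so the sum did not follow Ucp1 across regions. Smooth muscle markers summed to 15.40 to 15.98 in SA and 16.01 to 16.49 in PV, above LA in each case. Schwann cell markers summed to 12.24 to 12.72 in PV against 10.60 to 11.18 in LA, and 4 of 4 were higher in PV, as were 2 of 5 fibroblast and 1 of 5 adipocyte markers. The part of these cells in the SA and PV values was not tested.

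PV lay between LA and SA. Against LA, 26 of 79 genes were higher in PV and 0 lower (background 6.99% and 6.51%, median difference 0.22 against -0.03 for all genes), a count that fell to 13 higher and 2 lower under quantile normalization. The count of higher genes was 15 without LA replicate 2 or PV replicate 3, 16 without LA replicate 1, and 9 when only LA and PV arrays were fitted. Without PV replicate 3, 1 gene was lower. Among those higher was Sdhb, by 0.61 ± 0.08 (limma adjusted p = 7.46e-05). Against SA, 2 genes were lower in PV and 0 higher, where 0.783% of all genes were lower and 2.71% higher, with a median difference of -0.18. They were Ndufa11, a membrane subunit of complex I, and Cox7b, a small subunit of complex IV. Ndufa11 was at 15.09, 14.99, 15.05 and 14.98 in SA and 14.73, 14.78, 14.75 and 14.50 in PV (-0.34 ± 0.08, limma adjusted p = 0.023). Cox7b was at 17.25, 17.32, 17.31 and 17.32 in SA and 17.02, 17.04, 17.10 and 16.95 in PV (-0.27 ± 0.07, limma adjusted p = 0.0482). In both genes the PV arrays lay below the SA arrays, though neither passed in a fit without the other regions, with normexp, under quantile normalization, or without PV replicate 4, SA replicate 1 or SA replicate 3.

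Some subunit genes were also higher in V than in PV and SA. Against PV, 63 of 79 genes were higher in V and 0 lower (background 18.3% and 15.6%, median difference 0.36 against 0.09). Under quantile normalization 43 were higher and 1, Cox7a2l, was lower, with a median difference of 0.22. Against SA, 28 of 79 were higher and 0 lower (background 15.8% and 12.3%, median difference 0.17 against 0.06), with 14 of 32 in complex I and 4 of 18 in complex IV. Cell type markers differed in the same comparisons. Against PV, 5 of 6 smooth muscle, 4 of 4 Schwann cell and 3 of 5 adipocyte markers were lower in V, and 3 of 5 endothelial, 3 of 4 macrophage and 3 of 4 lung epithelium markers were higher. Against SA, 5 of 6 smooth muscle and 3 of 6 brown adipocyte markers were lower in V, 4 of 5 endothelial and 3 of 4 macrophage markers were higher, and of 5 fibroblast markers 3 were higher and 2 lower. Of 2 erythroid markers measured, 2 were lower in V than in PV (median difference -2.70), SA (-3.21) and LA (-1.55), and 1 was higher in SA than in LA. The part of these cell types in the subunit values was not tested. Over the 15 arrays of LA, V and SA together, limma's moderated F-test found 73 of 79 genes to differ (92.4%), where it called 40.5% of all genes. These comparisons share arrays and are not independent of each other.

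No subunit gene passed in LV against RV (background 0.298% higher and 0.224% lower among all genes), in limma or under any alternative run. At an unadjusted limma p under 0.05, 19 genes were higher and 1 lower in LV. The share of all genes at that threshold was not counted, so this count has no background to be read against. The median difference, LV minus RV, was 0.14, with 67 of 79 genes above 0. It was 0.075 without RV replicate 2, 0.066 under quantile normalization and 0.054 within slide 3.

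**Figure D3:**
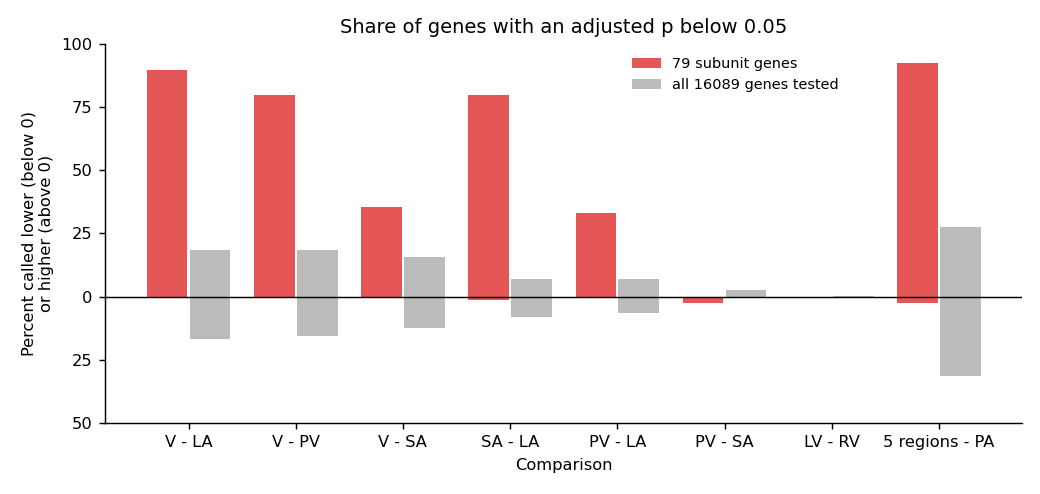
Percent of the 79 subunit genes (red) and of all 16089 genes tested (grey) with an adjusted p below 0.05 in 8 comparisons; bars above 0 are genes higher in the first region, bars below 0 are genes lower in it. The red bars exceed the grey ones upward in V minus LA, V minus PV, V minus SA, SA minus LA, PV minus LA and the 5 regions minus PA, and no red bar is drawn for LV minus RV.

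The contrast with the artery was the largest. Subunits were lower in PA than in the mean of the 5 other regions by 4.32-fold at the median. In that comparison 73 of 79 genes were higher in the 5 regions and 2 were lower, where 27.7% of all genes were higher and 31.4% lower. The median difference (mean of the 5 regions minus PA) was 2.11, against -0.05 for all genes. In 72 of the 79 genes each of the 19 other arrays was above all 4 PA arrays (15.1% of all genes). The higher genes were 31 of 32 in complex I (median difference 2.28), 4 of 4 in complex II (2.19), 8 of 8 in complex III (1.93), 13 of 18 in complex IV (2.07) and 16 of 16 in complex V (1.98).

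Within the complexes the size of this difference varied between genes. Ndufv3, an accessory subunit of the NADH-oxidising part of complex I, was at 11.87, 11.95, 11.66 and 11.91 in PA and at 14.95 to 16.10 (median 15.68) on the other arrays, a difference of 3.79 ± 0.07 (limma adjusted p = 6.27e-19). Its probes disagreed, since a dimmer probe of Ndufv3 gave -0.77 where the brighter gave 3.86. Ndufa10 went the other way and was at 8.02, 8.29, 8.98 and 8.55 in PA against 7.32 to 8.16 (median 7.86) elsewhere. The groups overlapped in this gene through PA replicate 1, and it was the only complex I gene higher in PA (5 regions minus PA -0.64 ± 0.14, limma adjusted p = 0.000379). Ndufa10l1, the complex I gene of nearest symbol, is named here after its values were seen. Both of its probes were higher in the 5 regions than in PA, the brighter by 2.05. The mean log2 signal over all arrays was 7.93 for the Ndufa10 probe and 15.67 for the brighter Ndufa10l1 probe. The higher signal in PA was thus seen with the dim Ndufa10 probe and not with Ndufa10l1.

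In complexes II, III and V the differences ran from about 1 to over 3 on the log2 scale. Sdha, the flavoprotein of complex II, differed by 2.68 ± 0.06 (limma adjusted p = 2.84e-18) and Sdhc, a membrane anchor, by 1.64 ± 0.07. Uqcrfs1, the Rieske iron-sulfur protein of complex III, was at 13.28, 12.73, 12.81 and 13.18 in PA and at 15.79 to 16.92 (median 16.48) elsewhere. The arrays did not overlap (3.48 ± 0.10, limma adjusted p = 1.34e-16). Uqcr11, a small subunit of the same complex, differed least, with 15.65, 15.90, 15.57 and 15.72 in PA against 16.13 to 17.07 (0.93 ± 0.07, limma adjusted p = 5.02e-10). Atp5mc1, which encodes the c subunit of the rotor ring, was at 15.37, 15.01, 14.85 and 15.15 in PA and at 17.83 to 18.71 (median 18.30) elsewhere (3.22 ± 0.10, limma adjusted p = 2.71e-16). Atp5if1 differed least in complex V, with 14.19, 14.18, 13.88 and 13.95 in PA (1.22 ± 0.06, limma adjusted p = 3.2e-13). In each of these genes all 4 PA arrays were below the other 19.

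Complex IV held both the largest and the smallest differences, and they followed its isoforms. Of its genes, 13 of 18 were higher in the 5 regions than in PA, 1 was lower and 4 did not pass. Its muscle forms Cox7a1 and the isoform Cox7b2 were not analysed here.

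Cox6a2, the heart and skeletal muscle form of subunit VIa, showed the largest difference of all 79 genes. In PA it was at 13.67, 10.23, 12.90 and 13.04, and on the other 19 arrays it was at 18.32 to 19.12 (median 18.78). PA replicate 2 was the lowest array by more than 2 on the log2 scale. It was also the lowest PA array in Myh6, Tnnt2 and Myl2, but not in the myocyte genes Actc1, Ryr2 and Myl7. The difference, 5 regions minus PA, was 6.33 ± 0.34 (80.3-fold, limma adjusted p = 2.64e-12), and 5.58 without PA replicate 2. Its partner Cox6a1, the form of other tissues, was at 17.29, 17.46, 17.07 and 17.17 in PA and at 16.75 to 17.65 (median 17.14) elsewhere, within the same range. It did not differ past the threshold (-0.04 ± 0.07, limma adjusted p = 0.672), but was lower by 0.21 on the log2 scale under quantile normalization (-0.21, limma adjusted p = 0.0183).

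Cox8b, the muscle form of subunit VIII, was second. It was at 12.81, 11.22, 12.51 and 13.12 in PA and at 17.59 to 18.70 (median 18.06) elsewhere, and PA replicate 2 was again the lowest. The difference was 5.72 ± 0.20 (52.7-fold, limma adjusted p = 3.29e-15), and 5.32 without PA replicate 2. The partner Cox8a was at 16.51, 16.44, 16.37 and 16.51 in PA and at 16.58 to 17.17 elsewhere, narrowly apart. It was higher in the 5 regions by 0.36 ± 0.07 (limma adjusted p = 0.000228), a call lost under quantile normalization (0.08, limma adjusted p = 0.33).

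**Figure D4:**
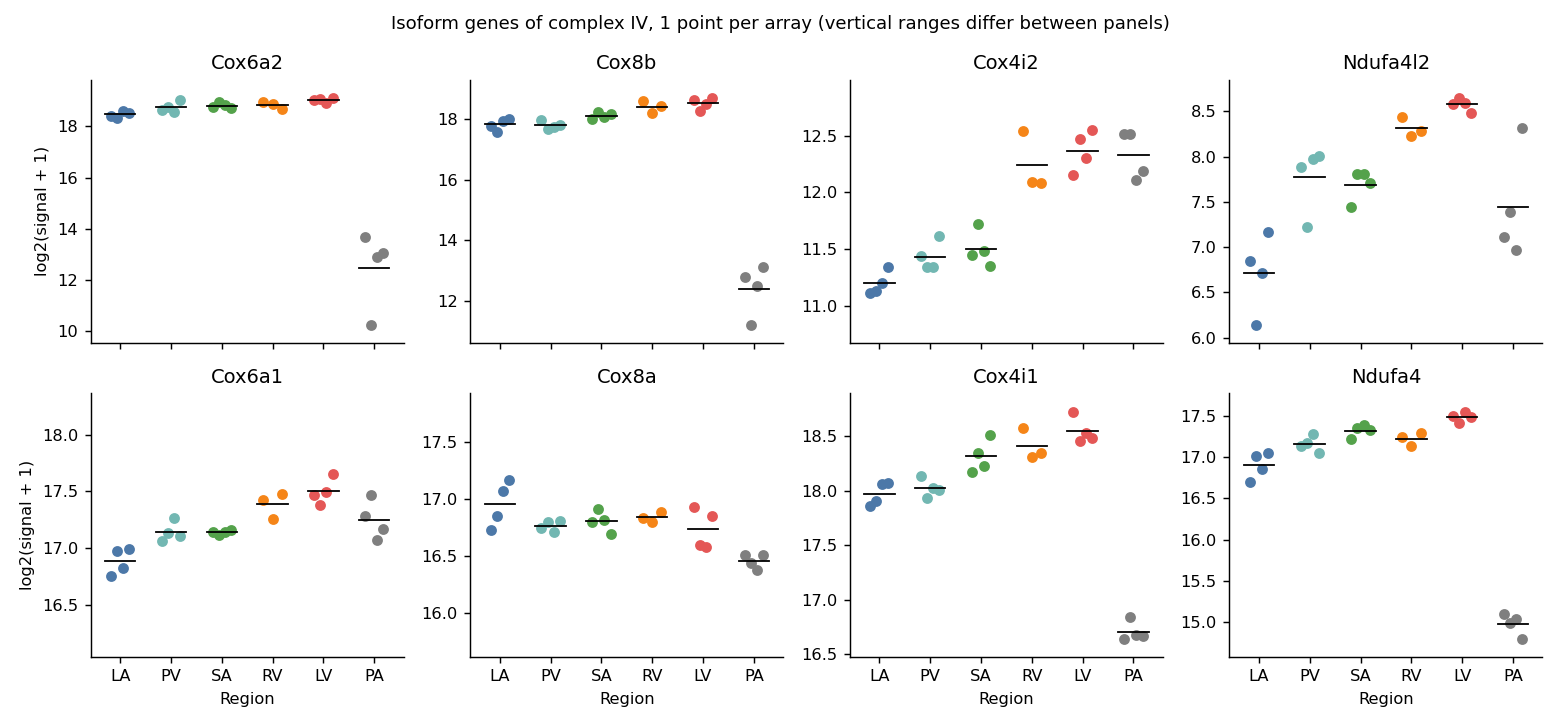
log2 signal of 4 tissue isoforms of complex IV (top) and their partners (bottom) by region, 1 point per array, lines are means, vertical ranges differ between panels. Cox6a2 and Cox8b are at 10.23 to 13.67 in PA and above 17.5 elsewhere, whereas Cox6a1 in PA lies within the range of the other regions and Cox8a in PA just below it.

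Among the heart regions the same isoforms behaved differently from each other. Cox6a2 was at 18.42, 18.32, 18.62 and 18.53 in LA and at 18.67 to 19.12 (median 18.95) in V, so the arrays did not overlap. It did not pass in V against LA in the fit of all arrays (0.47 ± 0.39, limma adjusted p = 0.398), in which the PA arrays enter its spread. Its limma adjusted p was 0.00612 without PA replicate 2 and 0.00249 when only LA, LV and RV were fitted. Cox6a1 was at 16.75, 16.98, 16.83 and 16.99 in LA and 17.26 to 17.65 (median 17.47) in V, without overlap, and was higher in V by 0.55 ± 0.08 (limma adjusted p = 1.4e-05).

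Cox8b was at 17.77, 17.59, 17.95 and 18.005 in LA, 17.98, 17.67, 17.73 and 17.80 in PV, and 18.01, 18.23, 18.06 and 18.18 in SA. The V arrays, at 18.20 to 18.70 (median 18.48), lay above those of LA and PV and overlapped SA. Cox8b was higher in V than in LA by 0.64 ± 0.23 (limma adjusted p = 0.0391). That call was lost without any 1 of LA replicates 1, 2 and 3, LV replicates 1, 3 and 4 or RV replicates 1 and 3. In those fits the difference stayed at 0.56 to 0.68 (limma adjusted p 0.0503 to 0.117). The call was also lost with the 75th percentile (limma adjusted p = 0.0548) and with quantile normalization (difference 0.27, limma adjusted p = 0.427). The limma adjusted p was 0.000342 without PA replicate 2 and 0.00256 when only LA, LV and RV were fitted. Cox8a had its highest array in LA, with 16.73, 16.86, 17.07 and 17.17 there and 16.58 to 16.93 (median 16.83) in V. LA and V overlapped (-0.17 ± 0.08, limma adjusted p = 0.136), but Cox8a was lower in V under quantile normalization (-0.45, limma adjusted p = 8.11e-05).

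The isoform Cox4i2 had a pattern of its own. It encodes the form of subunit IV known from lung and from oxygen-sensing tissue, and it has the same role as Cox4i1. In LA it was at 11.11, 11.13, 11.20 and 11.34, in PV at 11.44, 11.34, 11.34 and 11.62, and in SA at 11.45, 11.72, 11.48 and 11.35. In LV it was at 12.15, 12.47, 12.30 and 12.55, in RV at 12.54, 12.10 and 12.08, and in PA at 12.51, 12.51, 12.11 and 12.19. Both ventricles and PA were thus above every array of LA, PV and SA, and the ventricles overlapped PA. The differences were 1.11 ± 0.11 for V minus LA (limma adjusted p = 2.21e-07), 0.80 ± 0.11 for V minus SA (limma adjusted p = 1.63e-05) and 0.87 ± 0.11 for V minus PV (limma adjusted p = 5.18e-06). It was 1 of the 2 subunit genes lower in the 5 regions than in PA (-0.58 ± 0.10, limma adjusted p = 3.04e-05). Cox4i1, the common form, was at 17.86, 17.90, 18.06 and 18.07 in LA, 18.31 to 18.72 in V and 16.64, 16.84, 16.68 and 16.67 in PA, the order of most subunits (5 regions minus PA 1.55 ± 0.07, limma adjusted p = 1.67e-13).

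Ndufa4l2, a relative of Ndufa4 known as a target of hypoxia-inducible factor, had the largest difference of all 79 genes between V and LA. It was at 6.84, 6.14, 6.71 and 7.17 in LA, 7.88, 7.22, 7.97 and 8.0045 in PV and 7.44, 7.80, 7.80 and 7.71 in SA. V ran from 8.22 through 8.48 to 8.65, and PA was at 7.12, 7.39, 6.97 and 8.31. The LA arrays were below all arrays of PV, SA and V, the V arrays were above those of PV and SA, and PA overlapped every other region. Ndufa4l2 was 3.32-fold higher in V than in LA (1.73 ± 0.22, limma adjusted p = 3.66e-06), higher in SA than in LA by 0.97 ± 0.25 (limma adjusted p = 0.0105) and higher in PV than in LA by 1.05 ± 0.25 (limma adjusted p = 0.00656). Against PA the 5 regions did not pass (0.37 ± 0.19, limma adjusted p = 0.111), but they did under quantile normalization (0.48, limma adjusted p = 0.0285) and without PA replicate 4 (0.65, limma adjusted p = 0.00224). Which probe was brighter changed between arrays, and against PA the 2 probes of Ndufa4l2 gave 1.24 and 0.81, so this comparison depends on the choice of probe (1.24 with the probe of highest mean, limma adjusted p = 0.00104). Between V and LA both probes gave 1.87. Ndufa4, now counted as a subunit of complex IV, was at 16.70, 17.01, 16.85 and 17.05 in LA, 17.13 to 17.55 in V and 15.10, 14.98, 15.04 and 14.80 in PA (V minus LA 0.45 ± 0.08, limma adjusted p = 8.1e-05). The part of the endothelial markers, which were also higher in V than in LA, in the values of Cox4i2 and Ndufa4l2 was not tested.

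The remaining isoforms of complex IV differed among themselves. Cox7a2l, which takes part in joining complexes III and IV into supercomplexes, lay between 14.79 and 15.16 on all 23 arrays. It did not pass in V minus LA (-0.01 ± 0.06, limma adjusted p = 0.953) or 5 regions minus PA (0.05 ± 0.06, limma adjusted p = 0.441). Under quantile normalization Cox7a2l was lower in V than in LA (-0.18, limma adjusted p = 0.0357), lower in V than in PV (-0.19, limma adjusted p = 0.0287) and lower in the 5 regions than in PA (-0.27, limma adjusted p = 0.000294). Cox7a2, the common form of subunit VIIa, followed the majority, with 2.14 ± 0.06 for the 5 regions minus PA (limma adjusted p = 4.28e-17). Cox6b2, the form of subunit VIb known from testis, differed by 0.31 ± 0.13 between V and LA (limma adjusted p = 0.0802) and by 0.28 ± 0.12 between the 5 regions and PA (limma adjusted p = 0.0444, and 0.11 under quantile normalization). Its partner Cox6b1 was at 8.30, 7.97, 8.12 and 8.004 in PA and 10.46, 10.53, 10.46 and 10.75 in LA, and was higher in the 5 regions by 2.82 ± 0.07 (limma adjusted p = 8.77e-18). Cox8c, also known from testis, was at 3.82, 3.32, 2 and 7.74 in LA, and only 1 array was above background.

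The balance of an isoform and its partner on the same array was then compared between regions, since a change in that difference does not depend on the scaling of the array. The level of 1 isoform was not set against the other, because probes differ in brightness. There were 5 pairs and 8 comparisons, tested by exact two-sided permutation over arrays with Benjamini-Hochberg adjustment over the 40 tests, of which 14 were below 0.05. In these tests V is the mean of the 7 LV and RV arrays. Comparisons of 4 arrays with 4 cannot go below 0.0286 before adjustment.

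For subunit VIa, Cox6a2 minus Cox6a1 was even across the heart and different in the artery. It was 1.58 ± 0.19 (SD, n = 4) in LA, 1.54 ± 0.13 (n = 4) in LV, 1.45 ± 0.23 (n = 3) in RV, 1.68 ± 0.11 (n = 4) in SA, 1.62 ± 0.26 (n = 4) in PV and -4.79 ± 1.65 (n = 4) in PA. The 19 other arrays exceeded PA by 6.37 (exact permutation p = 0.000113, the smallest possible, adjusted p = 0.000903). V and LA differed by -0.08 (exact permutation p = 0.476).

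For subunit VIII the balance differed among heart regions too. Cox8b minus Cox8a was 0.87 ± 0.12 (SD, n = 4) in LA, 1.03 ± 0.15 (n = 4) in PV, 1.32 ± 0.12 (n = 4) in SA, 1.57 ± 0.18 (n = 3) in RV, 1.78 ± 0.11 (n = 4) in LV and -4.04 ± 0.81 (n = 4) in PA. It was larger in V than in LA by 0.82 (exact permutation p = 0.00303, adjusted p = 0.0101), than in PV by 0.66 (exact permutation, adjusted p = 0.0101) and than in SA by 0.37 (exact permutation p = 0.0121, adjusted p = 0.0373). SA and LA did not overlap and differed by 0.44, at the smallest p that 4 against 4 arrays allow (exact permutation p = 0.0286, adjusted p = 0.0672). Between the 19 other arrays and PA the difference was 5.34 (exact permutation, adjusted p = 0.000903).

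For subunit IV the balance leaned toward Cox4i2 in V and, more so, in PA. Cox4i2 minus Cox4i1 was -6.78 ± 0.06 (SD, n = 4) in LA and -4.37 ± 0.19 (n = 4) in PA. V exceeded LA by 0.60 and SA by 0.64 (exact permutation, adjusted p = 0.0101 for each), and the 19 other arrays were below PA (-2.15, exact permutation, adjusted p = 0.000903). Ndufa4l2 minus Ndufa4 was larger in V than in LA by 1.28, than in SA by 0.72 and than in PV by 0.48 (exact permutation, adjusted p = 0.0101 for each), and smaller on the 19 other arrays than in PA (-1.90, exact permutation, adjusted p = 0.000903). The last of these was lost with the Ndufa4l2 probe of highest mean (-1.03, exact permutation, adjusted p = 0.0703). Cox6b2 minus Cox6b1 passed only against PA (-2.54, exact permutation, adjusted p = 0.000903), among the 8 comparisons of that pair.

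**Figure D5:**
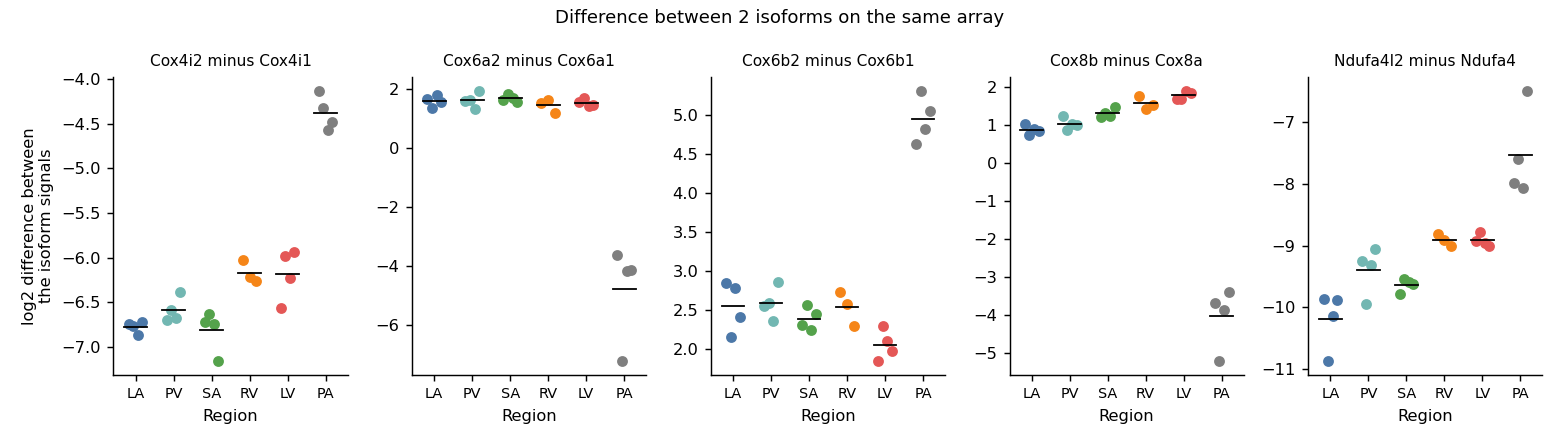
log2 difference between a tissue isoform and its partner on the same array, by region, 1 point per array, lines are means; vertical ranges differ between panels. Cox6a2 minus Cox6a1 has region means of 1.45 to 1.68 outside PA, while Cox8b minus Cox8a runs from 0.87 in LA to 1.78 in LV; both lie below 0 in PA.

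How closely the genes moved together was described by the correlation of each gene with the median of the others across arrays, which share the scaling of each array. Over 23 arrays the median Pearson r was 0.99, and 71 of 79 genes were over 0.9. The 7 genes under 0.5 were Ndufa10, Cox4i2, Cox8c, Cox6a1, Cox7a2l, Ndufa4l2 and Cox6b2, of which Ndufa10 (-0.69) and Cox4i2 (-0.24) were negative. Without the PA arrays the median r over 19 arrays was 0.92, and 47 genes were over 0.9. Under 0.5 there were Cox8a (-0.26), Cox8c (-0.23), Cox7a2l (0.05), Ndufa10 (0.15), Cox6b2 (0.24) and Atp5if1 (0.35). The arrays fall into region groups, so these values describe the regional pattern.

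Other genes of energy metabolism were counted for the same comparisons, in which 18.4% of all genes were higher and 16.9% lower in V than in LA, and 27.7% higher and 31.4% lower in the 5 regions than in PA. Of 17 citric acid cycle genes, 16 were higher in V than in LA (median difference 0.67) and all 17 were higher in the 5 regions than in PA (2.52). Among these were Idh3b, a subunit of the NAD-dependent isocitrate dehydrogenase (5 regions minus PA 3.50), the malate dehydrogenase gene Mdh2 (3.48), the succinyl-CoA ligase gene Sucla2 (2.86) and the isocitrate dehydrogenase gene Idh2 (2.85). Of 12 electron carriers and core subunits outside the symbol rule, 8 were higher and 1 lower in V than in LA, and 9 were higher and 2 lower in the 5 regions than in PA. The largest of these differences against PA were those of Etfdh, which feeds electrons from fatty acid oxidation to ubiquinone (3.47), cytochrome c, Cycs (3.29), the ubiquinone synthesis gene Coq7 (3.16) and the acyl carrier protein Ndufab1 (3.09).

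Of 41 assembly factors measured, 27 were higher in V than in LA (median difference 0.38) and 11 in SA than in LA, where 18.4% and 7.03% of all genes were higher. In the 5 regions 38 were higher and 3 lower than in PA (1.19), against 27.7% and 31.4% of all genes. Tmem70, needed to assemble the ATP synthase, differed from PA by 2.65, the complex I factors Ndufaf1 and Ecsit by 2.54 and 2.34, and the complex III factor Uqcc1 by 2.32. Of 14 energy transfer and carrier genes, 9 were higher and 2 lower in V than in LA (18.4% and 16.9% of all genes), and 11 were higher and 1, Ucp1, was lower in the 5 regions than in PA (-5.21). Mitochondrial creatine kinase of muscle, Ckmt2, was higher by 7.49, the cytosolic muscle creatine kinase Ckm by 4.49 and the carrier Ucp2 by 3.52.

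Of 17 transcriptional regulators of mitochondria, 6 were higher and 1 lower in V than in LA (18.4% and 16.9% of all genes), and 11 were higher and 4 lower in the 5 regions than in PA (27.7% and 31.4% of all genes). Perm1, a muscle regulator of the PGC-1 and estrogen-related receptor pathway, was higher in the 5 regions by 5.19 and in V than in LA by 1.01. The coactivator Ppargc1a was higher by 2.69 and 0.28, the nuclear receptor Ppara by 2.37 and 0.98, and the estrogen-related receptor Esrra by 1.69 and 0.50 in the same comparisons. Gabpa and Nrf1, which encode factors of the ETS and NRF1 motifs printed above, are named after their values were seen. Gabpa was lower in V than in LA (-0.35, limma adjusted p = 0.00247) and lower in the 5 regions than in PA (-0.45, limma adjusted p = 1.87e-05). Nrf1 was lower in the 5 regions than in PA (-0.62, limma adjusted p = 8.15e-06) and did not pass between V and LA (0.20, limma adjusted p = 0.167). The 13 subunits encoded in mitochondrial DNA were not analysed here.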

How the data were processed

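RNA of 23 samples was measured on single-color Agilent arrays. The authors' deposited normalized intensities were used, which are on a linear scale. Per the file headers and the labels, Agilent Feature Extraction 11.0.1.1 had subtracted background and detrended the signals, and each array was multiplied by 1 factor, so that its 90th percentile lay between 3984 and 3988 (99.6% to 99.8% of the probes were within 2% of that product). Feature Extraction's processed and median intensities, also deposited by the authors, were used for detection and for 2 alternatives.

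Of 45596 probes, 156 with a missing value were left out, and 21109 were named through RefSeq accessions. Each gene was represented by its brightest probe, chosen per array, as log2 of the signal plus a pseudocount of 1. The 16089 genes above 4 on at least 1 array were fitted with 1 mean per region in limma 3.58.1 (R 4.3.3, data.table in version 1.17.8). The test among LA, V and SA used 15 arrays and 15809 genes. Tests were two-sided. Python 3.11.15, pandas 2.3.3, numpy 2.4.6 and matplotlib 3.10.9 served for the other steps, and the procedure was tested on simulated data.

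Members named are the isoforms, the largest changes in each comparison and the extremes of each complex. From each other list at most 4 of the largest changes called are named. The members, lists and rules were chosen with earlier results of these data known. Alternatives included other scalings, filters, pseudocounts, probe choices, blocks and leaving out each array. Those added after seeing the data were normexp on the median signals, medians within slides and array rows, and leaving out PA replicate 2 for the isoforms.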

Additional observations from a re-analysis of the deposited data

Results flagged for a closer look

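In 145 groups of 4 arrays (the named members in each region), the highest or the lowest array was tested for its gap to the nearest of the others relative to the range of the group (Dixon's criterion, 0.829 for 4 arrays), and 7 groups passed. Chance gives about 1 in 20. The array that stood apart was high for Atp5pf in PA replicate 1 (14.39 against 14.10 to 14.11), Ndufa11 in LV replicate 1 (15.26 against 15.05 to 15.08) and Ndufv3 in SA replicate 3 (15.84 against 15.68). It was low for Cox7b in SA replicate 1 (17.25 against 17.31 to 17.32), Ndufa4l2 in PV replicate 2 (7.22 against 7.88 to 8.0045), Sdhb in LV replicate 1 (16.29 against 16.39 to 16.40) and Uqcrc1 in SA replicate 2 (15.37 against 15.49 to 15.50).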

How the results depend on the processing

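No value past its threshold reversed its direction under the alternatives run. Among differences that had not passed, the sign turned with quantile normalization for Cox7a2l (5 regions minus PA, -0.27, where it passed, limma adjusted p = 0.000294), Atp5if1 (V minus LA, -0.078) and Ndufa10 (V minus LA, -0.00282), and with array row as a block (0.0046) and the replicate block with RV numbered 1, 2 and 4 (0.0011) for Cox7a2l (V minus LA). Leaving out 1 array turned it for Cox6a1 (5 regions minus PA, -0.097 to 0.034), Cox7a2l (5 regions minus PA, -0.0029 to 0.11, and V minus LA, -0.021 to 0.013) and Cox8c (5 regions minus PA, -0.12 to 0.37). The cause was not tested. Quantile normalization lowered the median subunit difference to 0.37 (V minus LA), 0.22 (V minus PV), 0.21 (SA minus LA), 0.14 (PV minus LA), -0.075 (PV minus SA) and 1.90 (5 regions minus PA), and the subunit genes called to 31 for SA minus LA, 15 for PV minus LA and 0 for PV minus SA. The cause was not tested. With only the arrays compared, where fewer arrays enter the spread, 9 were called for PV minus LA and 0 for PV minus SA. The 2 calls of PV minus SA became 1 with the 75th percentile, 0 with normexp, 1 with no filter, 4 when genes had to be well above background and 4 with a trend in the prior variance, and the cause was not tested. Normexp moved the median of all genes to 0.19 for V minus LA and 0.17 for SA minus LA. Within slide 3 the median subunit difference was 0.49 (V minus LA), 0.30 (SA minus LA) and 0.054 (LV minus RV), within slide 2 it was 0.51 (SA minus LA), and within array row 2 it was 0.32 (PV minus LA).

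Leaving out each array in turn gave 70 to 72 genes called and medians of 0.56 to 0.63 for V minus LA, 22 to 31 and 0.16 to 0.20 for V minus SA, 56 to 65 and 0.35 to 0.40 for V minus PV, 51 to 65 and 0.38 to 0.46 for SA minus LA, 15 to 28 and 0.19 to 0.27 for PV minus LA, 0 to 3 and -0.20 to -0.16 for PV minus SA, 0 to 0 and 0.08 to 0.17 for LV minus RV, and 74 to 75 and 2.10 to 2.15 for the 5 regions minus PA. The F-test called 71 to 73, and 12 to 14 isoform balances passed. For single genes, 2579 of the alternative values kept direction and side of the threshold, 128 kept direction and lost the call, 17 kept direction and gained one, and 10 changed sign.

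Same-numbered arrays of different regions were not more alike than others. Over 55 same-numbered pairs the correlation of deviations from the region means had a median of -0.04 and exceeded 0.1 in 12. Over 165 pairs with different numbers the median was 0.001, and 52 exceeded 0.1. These correlations cannot show whether same-numbered samples came from the same rats. With replicate number as a block the genes called were 71, 27, 63, 61, 21, 2, 0 and 74 for V minus LA, V minus SA, V minus PV, SA minus LA, PV minus LA, PV minus SA, LV minus RV and the 5 regions minus PA, and 73 in the F-test. The precision is limited by 3 or 4 arrays per region, and Cox8c lay at background on 22 of 23 arrays.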
